A study of Mus musculus with 4 samples.

Results

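Mature follicular-like B cells were picked from single-cell RNA counts of mouse blood leukocytes by a rule on UMIs (unique molecular identifiers, each standing for 1 captured RNA molecule). A barcode was a member when it had at least 200 genes, at most 10% mitochondrial UMIs, at least 3 UMIs of the B cell genes Cd79a, Cd79b and Ms4a1 together, and at most 1 UMI of Cd3d, Cd3e, Cd3g, Csf1r, Csf3r and Ncr1 together, which mark T cells, myeloid cells and NK cells. It also needed at least 1 UMI each of Fcer2a and Ighd, and no UMI of Cd93, Vpreb3, Cdkn2a or the added GFP sequence. At most 2 UMIs of the interferon-stimulated genes Ifit3, Ifit1, Isg15, Usp18 and Oasl1 were allowed, and Igkc UMIs had to outnumber those of Iglc1, Iglc2 and Iglc3 together. The rule left 586 of 15439 kept cells. Of these, 198 and 131 came from the Relapsed libraries and 121 and 136 from the Cured libraries (replicates 1 and 2 in that order, here and below).

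The samples compare the blood of mice that would relapse with that of mice that would be cured. All mice were C57BL/6J, aged 10 weeks, inoculated with acute lymphoblastic leukaemia (ALL) and given dasatinib, a tyrosine kinase inhibitor. Blood was drawn 1 week after dasatinib began, with every mouse in remission, and treatment went on for 4 more weeks. Survival status at day 100 after inoculation put 6 mice in the Relapsed group and 6 in the Cured group. The groups were thus defined by what happened after the blood had been drawn. Cells were cryopreserved, thawed, sorted for live cells and pooled from 3 mice per library, so that each group had n = 2 libraries and no cell could be traced to a mouse. Libraries were made with the 10x Genomics 5′ chemistry, which reads RNA from the end that carries the variable segment of an immunoglobulin transcript.

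Follicular B cells are the main recirculating mature B cells of blood, spleen and lymph nodes. They carry IgM and IgD of the same specificity together with the low-affinity IgE receptor CD23, encoded by Fcer2a. They depend on tonic signals from the B cell receptor and on the survival cytokine BAFF, and they present antigen on MHC class II to helper T cells. Each mature B cell normally uses 1 light chain, kappa (variable segments Igkv, constant gene Igkc) or lambda (variable segments Iglv, constant genes Iglc), and most mouse B cells use kappa. Vpreb3 and Cd93 are used to mark younger, transitional B cells.

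The last condition of the rule compares the constant genes of the light chains, and one of the variable segments carried the larger of the differences found between the groups, so their sequences are given first. The first 90 coding bases of each constant gene follow, from GENCODE M21 transcripts on GRCm38 (Igkc chr6:70726435-70726524 plus strand, Iglc1 chr16:19061982-19062071, Iglc2 chr16:19198764-19198853 and Iglc3 chr16:19065592-19065681, all minus strand). Capitals mark bases of Iglc1 and Iglc3 that differ from Iglc2 in an alignment of the coding sequences.
Igkc: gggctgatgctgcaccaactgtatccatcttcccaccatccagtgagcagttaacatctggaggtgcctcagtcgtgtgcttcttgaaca
Iglc1: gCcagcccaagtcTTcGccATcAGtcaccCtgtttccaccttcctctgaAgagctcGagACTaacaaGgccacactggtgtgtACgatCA
Iglc2: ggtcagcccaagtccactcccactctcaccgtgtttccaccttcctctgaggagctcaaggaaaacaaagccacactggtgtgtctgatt
Iglc3: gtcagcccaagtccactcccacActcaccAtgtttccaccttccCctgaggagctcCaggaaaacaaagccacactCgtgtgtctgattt
Iglc3 and Iglc2 were 96.2% identical (12 differing columns), so counts between these near-identical copies are uncertain. Iglc1 and Iglc2 were 73.4% identical, and Igkc and Iglc2 were 53.9% identical. The last 300 of the 359 coding bases of Igkv1-117, a kappa variable gene (chr6:68121528-68121827, plus strand, exonic), are next, with capitals at the 10 bases that differ from its near copy Igkv1-110, to which it is 97.2% identical.
Igkv1-117: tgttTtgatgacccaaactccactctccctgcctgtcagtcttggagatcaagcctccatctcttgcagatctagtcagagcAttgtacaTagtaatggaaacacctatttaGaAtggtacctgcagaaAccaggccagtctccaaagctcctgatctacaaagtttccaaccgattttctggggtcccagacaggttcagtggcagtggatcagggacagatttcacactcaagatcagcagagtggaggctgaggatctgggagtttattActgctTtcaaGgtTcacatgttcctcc
A read that covers few of these 10 bases cannot be placed with certainty, so counts of this segment may be split with Igkv1-110.

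Members had a median of 1851 and 2043 UMIs in the Relapsed libraries, against 2241 and 2304.5 in the Cured libraries. Their summed UMIs were 375852 and 268569 in Relapsed libraries and 281408 and 316840 in Cured libraries. A member's barcode sequence occurred in another library for 12 members, and no barcode sequence was shared between members. Relapsed replicate 1 stood apart from the other libraries in haemoglobin. Its members held 1355 haemoglobin UMIs, of which 1324 lay in 1 member with 3239 UMIs in all, against 1 UMI in Relapsed replicate 2, and against 3 and 2 UMIs in the Cured libraries. They also held 411 S100a8 and S100a9 UMIs (neutrophil genes), 333 of them in 1 member, against 4 UMIs in Relapsed replicate 2. The Cured libraries held 101 and 22 UMIs, and 89 of the 101 in Cured replicate 1 lay in 1 member too. In Relapsed replicate 2, 30 UMIs of Gzma, a cytotoxic granule gene, lay in 1 member. These single members passed the rule, which reads 6 genes of other lineages, and no doublet caller was run. Their part in the results was not tested, apart from the values given below without each library.

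Only the B cell part of the label was checked, against B cell genes that the rule did not use. Summed over 10 such genes, Relapsed members had 4757 and 5027 CPM of the unadjusted class sum, and Cured members 4893 and 5141. B cells with Vpreb3 or Cd93 UMIs had 4455 and 4406 in Relapsed and 4419 and 4437 in Cured libraries. Genes present in both classes cannot decide whether members were mature follicular cells. After every cell had been thinned to 1000 UMIs (186 and 114 Relapsed members, 111 and 122 Cured members), Ebf1, a transcription factor of early B cell commitment, was detected in 78.5% and 78.1% of Relapsed members and 73.0% and 79.5% of Cured members. Pax5, the factor that maintains B cell identity (chr4:44524757-44710487, minus strand), was detected in 18.3% and 6.14% of Relapsed members and 10.8% and 15.6% of Cured members. The Fc receptor for IgM, Fcmr, was detected in 45.2% and 63.2% of Relapsed members and 56.8% and 57.4% of Cured members. T cells of the same libraries, which should lack these genes, showed Ebf1 in 0.397% and 0.328% of Relapsed and 0.234% and 0% of Cured cells, at median depths of 3095 to 3523 UMIs before thinning. The 5 marker genes of the label include Fcer2a (chr8:3681737-3694175, minus strand), Ighd (chr12:113406604-113416324, minus strand), Cd79a (chr7:24897381-24902197, plus strand) and Ms4a1 (chr19:11249675-11266241, minus strand), which the rule itself asked for or summed.

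Markers of other B cell states were in part present. Of 6 marginal zone genes 5 had UMIs, in sum 296 and 218 UMIs (788 and 812 CPM of the unadjusted class sum) in Relapsed members and 204 and 255 UMIs (725 and 805 CPM) in Cured members, and S1pr3 was at 0. Most of these were Mzb1 and Plac8, and the sum was 817 and 827 CPM in Relapsed and 872 and 838 CPM in Cured cells with Iglc at least Igkc. Memory genes summed to 54 and 44 UMIs in Relapsed and 33 and 50 UMIs in Cured members, and plasma cell genes to 25 and 30 UMIs against 37 and 35 UMIs. B1 genes had 21 and 3 UMIs in Relapsed and 12 and 5 UMIs in Cured members. Germinal centre genes summed to 5 and 4 UMIs in Relapsed and 2 and 9 UMIs in Cured members. Age-associated genes summed to 20 and 13 against 11 and 8 UMIs. Some of the markers in these lists had no UMI. Jchain and Tnfrsf17 of plasma cells, S1pr2 and Gcsam of germinal centre cells, Tbx21 of age-associated B cells and Zbtb32 and Ctla4 of B1 cells had 0 UMIs in all 4 libraries. Among 375852 and 268569 UMIs in Relapsed and 281408 and 316840 in Cured members, a count of 0 limits a gene to under 3 UMIs per library, which covers counting error only. Class-switched constant genes were nearly absent. Igha had 1 and 1 UMIs in Relapsed libraries and 2 and 1 in Cured libraries, Ighg3 had 1 and 0 against 1 and 0, and Ighg1, Ighg2b, Ighg2c and Ighe had 0 in every library. The added sequences GFP_1 (which the rule barred) and BCR_ABL_1 (which it did not read) had 0 UMIs. Of the 10 T cell genes listed, 5 and 5 had UMIs in Relapsed members and 4 and 3 in Cured members, with summed counts of 11 and 11 against 5 and 11 UMIs. The defining genes Trac, Cd4 and Cd8a were at 0 in all 4 libraries, and no library held more than 2 UMIs of a Cd3 gene, which the rule limited.

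**Figure D1:**
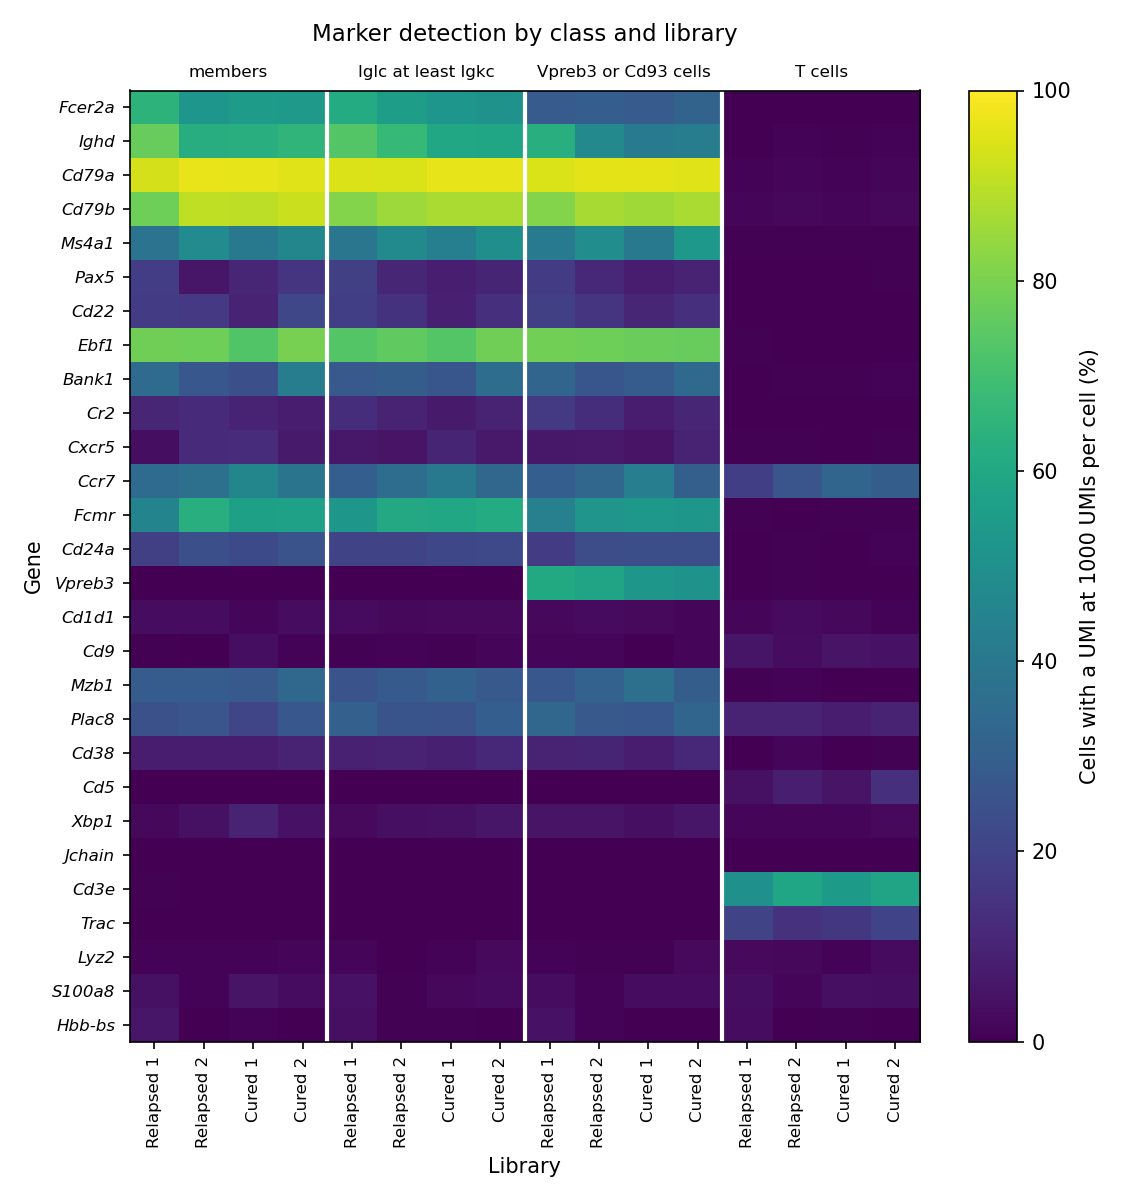
Share of cells with at least 1 UMI of each gene (rows) after thinning to 1000 UMIs per cell, in each library (columns; Relapsed left of Cured) for members, for cells passing the other conditions with Iglc at least Igkc, for B cells with Vpreb3 or Cd93 UMIs, and for T cells. The B cell genes Ebf1 and Fcmr are detected in all 3 B cell classes and nearly absent from T cells, and Vpreb3 is frequent in the class chosen by it and at most 0.656% in T cells.

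Beside the neighbouring B cell classes, members had similar levels of Cd24a. These values describe classes chosen by their counts and were not tested. B cells with Vpreb3 or Cd93 UMIs (3573 cells) were chosen almost wholly by Vpreb3, since Cd93 was detected in 0.156% and 0.284% of their Relapsed cells and 0.237% and 0.202% of their Cured cells after thinning. Cd24a, which falls as transitional cells mature, was detected in 18.8% and 24.6% of Relapsed members and 22.5% and 25.4% of Cured members, and in 17.7% and 23.5% of Relapsed and 23.8% and 24.1% of Cured cells of that class. Fcer2a was asked of members and of the cells with Iglc at least Igkc, but not of that class. In the Vpreb3 or Cd93 cells it was detected in 28.8% and 29.8% of Relapsed and 28.8% and 31.7% of Cured cells.

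The light chain condition kept the smallest share of cells of any step of the rule. Of 11375 gated B cells, 5469 had Fcer2a, 4051 of these had Ighd, 2663 lacked the barred genes and 2655 met the interferon limit, and 586 of these (22.1%) had more Igkc than Iglc UMIs. The share that passed this last step was 38.1% and 17.8% in Relapsed libraries and 19.4% and 17.6% in Cured libraries. Relapsed replicate 1 was high and the other 3 libraries lay close together. Many cells were near the threshold: 156 members exceeded Iglc by 1 UMI, and 226 cells just outside had equal counts. At the Fcer2a threshold, 368 members had exactly 1 UMI, and 659 cells that met all other conditions had 0.

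The cells left out by this step were not lambda cells for the most part. The 2033 cells that met the other conditions with at least 1 Iglc UMI and Iglc at least equal to Igkc carried kappa variable segments in 92.5% and 97.0% of Relapsed cells and 96.3% and 95.2% of Cured cells. Members carried them in 98.5% and 98.5% of Relapsed cells and 98.3% and 97.8% of Cured cells. Lambda segments outnumbered kappa segments in 1.52% and 3.82% of Relapsed members (exact 95% intervals 0.314% to 4.36% and 1.25% to 8.68%) and 3.31% and 4.41% of Cured members (0.908% to 8.25% and 1.64% to 9.36%). In the cells left out the share was 8.41% and 7.01% in Relapsed and 7.74% and 7.40% in Cured libraries, so most of them also carried more kappa than lambda segment UMIs. Median Igkv UMIs per cell were 15 and 21 in Relapsed members and 20 and 21 in Cured members, against 0 in T cells of every library. The light chain condition therefore did not divide these cells into kappa and lambda cells as their variable segments did.

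**Figure D2:**
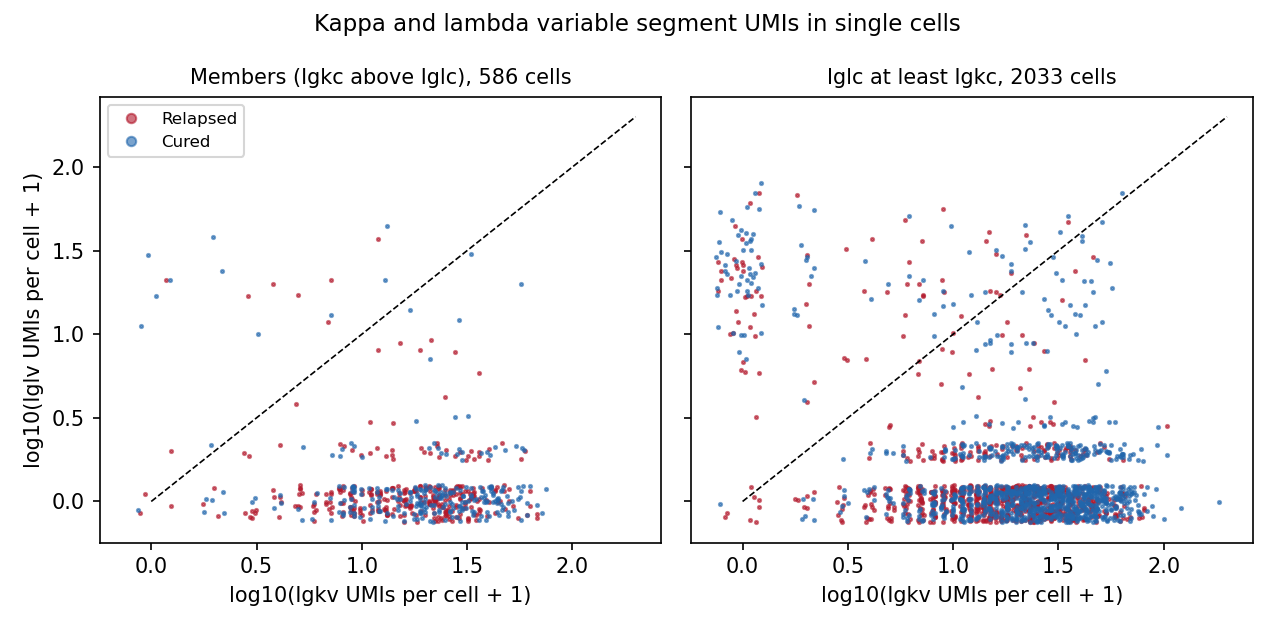
Kappa (Igkv, x axis) against lambda (Iglv, y axis) variable segment UMIs per cell, each as log10 of the count plus 1 with a small random offset, for the 586 members and for the 2033 cells with Iglc at least Igkc; red points are Relapsed and blue points Cured cells, and the dashed line marks equal counts. Most cells on both sides of the light chain condition lie at the bottom right, with kappa segment UMIs and few or no lambda segment UMIs.

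The constant gene counts themselves also set Relapsed replicate 1 apart. Members had 0.437 and 0.330 Igkc UMIs per Igkv UMI in Relapsed libraries, against 0.311 and 0.316 in Cured libraries. In the cells with Iglc at least Igkc the ratio was 0.268 and 0.152 in Relapsed libraries, against 0.117 and 0.124 in Cured libraries. The ratio in members was fixed in part by the rule, while replicate 1 had the highest of the 4 values in both classes. It was also highest in the B cells with Vpreb3 or Cd93 UMIs, where no light chain condition applied, at 0.313 and 0.168 in Relapsed and 0.138 and 0.153 in Cured libraries. Heavy chain variable segments were low in the same library, with a median of 1 and 2 Ighv UMIs per Relapsed member and 3 and 3 per Cured member.

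The share of follicular-like cells did not differ between the groups beyond the spread of the libraries. Members made up 9.28% and 3.93% of gated B cells in Relapsed libraries, against 4.37% and 4.33% in Cured libraries. The mean was 6.60% ± 3.79 in Relapsed and 4.35% ± 0.0297 in Cured libraries (SD, n = 2 each), a log2 ratio of 0.59 (SE 0.50, adjusted p = 0.640 over 6 classes by the edgeR quasi-likelihood test on cell counts). The exact two-sided permutation test gave p = 1, and with 2 against 2 libraries it cannot go below 0.333. Of all kept cells, members were 6.09% and 3.07% in Relapsed and 3.20% and 3.29% in Cured libraries (log2 ratio 0.49, SE 0.40, adjusted p = 0.825 over 7 classes). The ratio rested on Relapsed replicate 1: without it the log2 ratio among gated B cells was -0.15, and without Relapsed replicate 2 it was 1.09 (adjusted p = 0.0344, with the lone Relapsed library assumed to vary like the Cured pair). When cells with at least 1 light chain constant UMI were counted whichever chain was higher, a choice made after seeing the data, the share was 24.3% and 21.9% in Relapsed libraries and 22.1% and 24.1% in Cured libraries (log2 ratio -0.01, SE 0.09, adjusted p = 0.949 over 5 classes).

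**Figure D3:**
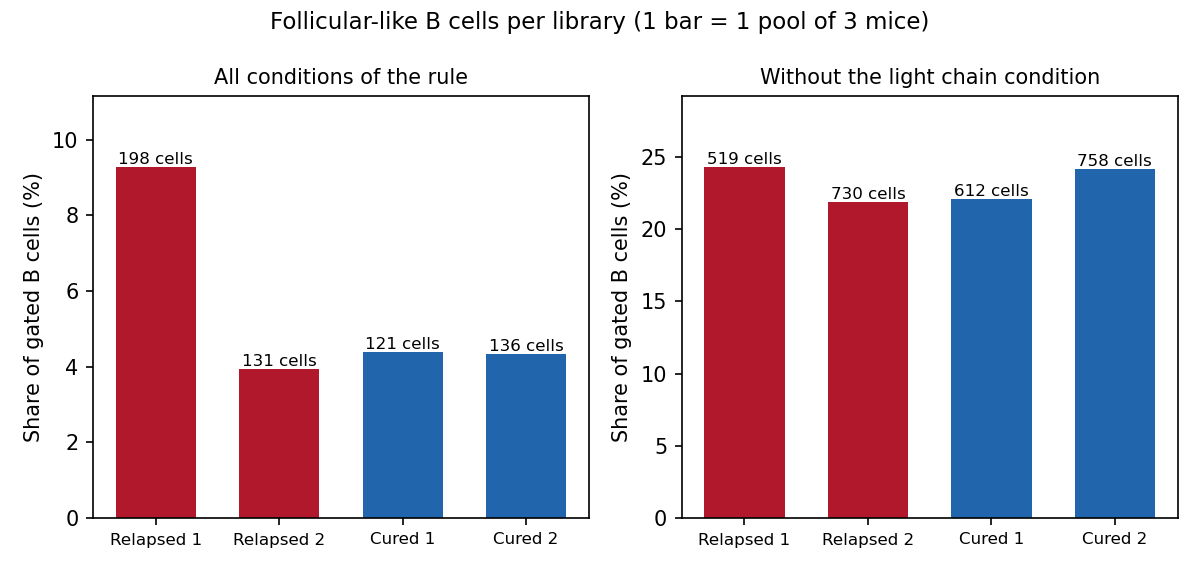
Share of gated B cells (y axis, %) that were follicular-like in each library, with all conditions of the rule (left) and without the light chain condition (right); red bars are Relapsed and blue bars Cured libraries, and cell numbers stand above the bars. The bar of Relapsed replicate 1 is high at 9.28% on the left, and the 4 bars lie between 21.9% and 24.3% on the right.

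UMIs were then summed over the members of each library and compared between the groups, which asks whether the cells differed in what they expressed. Of 3484 genes tested with edgeR, 2 passed an adjusted p of 0.05 (0.0574%), 1 higher and 1 lower in Relapsed libraries (0.0287% in each direction). The unadjusted p was under 0.05 for 219 genes (6.29%), 126 higher and 93 lower. The libraries of the groups did not overlap for 1206 genes (34.6%). Here and below, CPM are the usual scaled counts, taken relative to the TMM-adjusted UMI sum of the members of a library, and log2 fold changes are Relapsed over Cured. They compare the same gene between libraries and are not scaled for gene length, and fewer cells with a transcript and fewer transcripts per cell cannot be told apart in these sums.

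Igkv1-117 was higher in Relapsed libraries. It had 908 and 1646 CPM in Relapsed libraries and 420 and 419 CPM in Cured libraries (log2 fold change 1.60, SE 0.24, adjusted p = 0.0329). The groups did not overlap, and the 2 Cured values were nearly equal. The UMIs came from few cells, since a B cell carries many copies of the segment it uses: 304 UMIs in 15 cells and 406 UMIs in 11 cells of the Relapsed libraries, against 109 UMIs in 3 cells and 126 UMIs in 6 cells of the Cured libraries. As a share of members, without thinning, these were 7.58% and 8.40% of Relapsed cells and 2.48% and 4.41% of Cured cells. Up to 67 UMIs came from 1 cell in Relapsed libraries and up to 48 in Cured libraries. The difference did not pass limma-voom (adjusted p = 0.125), the strict limit of 0 UMIs of other lineages (adjusted p = 0.0807) or the rule without its Fcer2a and Ighd conditions (log2 fold change 0.62, adjusted p = 0.394). It passed without each library in turn, with log2 fold changes of 1.09 without Relapsed replicate 2 to 1.96 without Relapsed replicate 1. Without the light chain condition it was smaller, with 661 and 897 CPM in Relapsed and 619 and 476 CPM in Cured libraries (log2 fold change 0.51, SE 0.17, adjusted p = 0.544).

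Gm43305, a predicted processed transcript of no known function (chr14:54292443-54297456, minus strand), was lower in Relapsed libraries. It had 122 and 142 CPM in Relapsed libraries and 312 and 313 CPM in Cured libraries (41 and 35 against 81 and 94 UMIs; log2 fold change -1.24, SE 0.25, adjusted p = 0.0329). The groups did not overlap. With all UMIs counted and no thinning, the transcript was detected in 16.7% and 19.8% of Relapsed members and 44.6% and 40.4% of Cured members. Relapsed members had fewer UMIs per cell, for which these shares are not corrected. DESeq2 gave an adjusted p of 0.999 for it and limma-voom 0.0249. Leaving out 1 library gave 0.0562 without Relapsed replicate 1, 0.0891 without Cured replicate 1 and 0.0855 without Cured replicate 2, and the call held without Relapsed replicate 2 (0.00193). It was also lost at the equal depth of 1000 UMIs per cell (log2 fold change -0.86, adjusted p = 0.710) and with 0 UMIs of other lineages allowed (adjusted p = 0.0818). Without the light chain condition it was at 120 and 123 CPM in Relapsed and 236 and 239 CPM in Cured libraries (log2 fold change -0.97, SE 0.16, adjusted p = 0.0828).

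**Figure D4:**
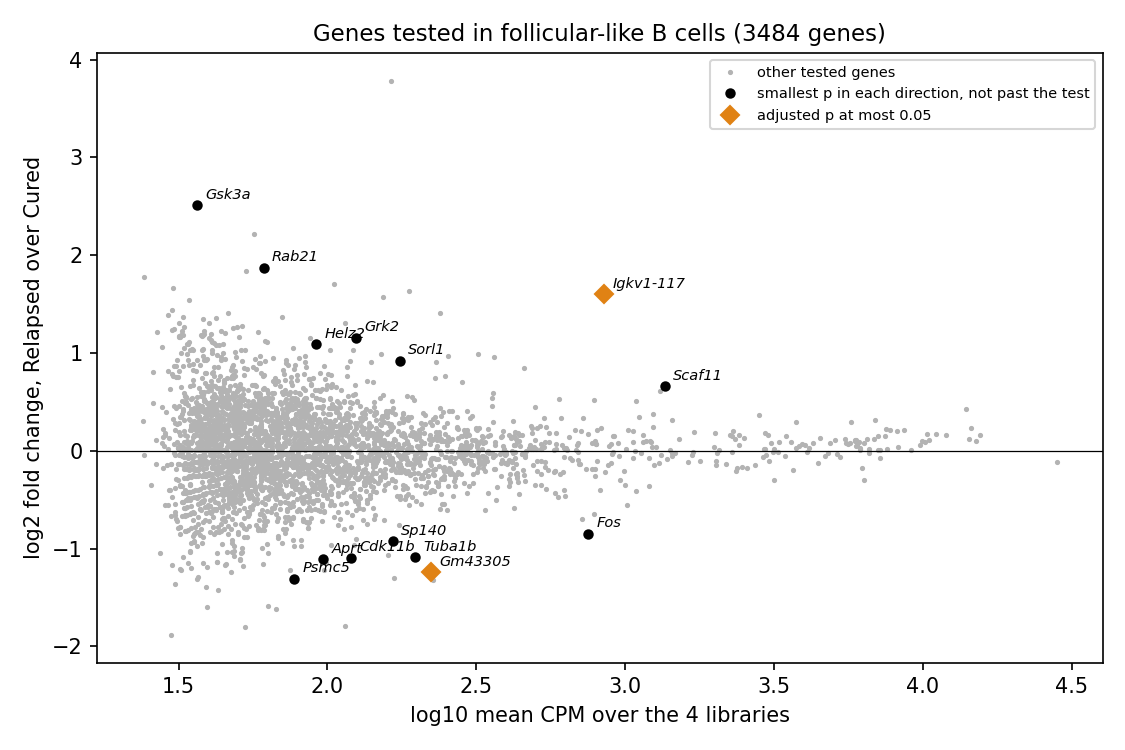
log2 fold change (Relapsed over Cured, y axis) against log10 mean CPM (x axis) for the 3484 genes tested in members; orange diamonds mark the 2 genes with an adjusted p of at most 0.05 and black points the named genes that did not pass. Most genes lie near 0, with a median of 0.01, and the scatter widens at low CPM.

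The naming rule filled up with the genes of smallest p whose groups did not overlap, and none of these 12 passed the test. On the higher side were Gsk3a, Rab21, Scaf11, Grk2, Sorl1 and Helz2. Gsk3a, a kinase of glycogen and Wnt signalling (chr7:25228258-25237851, minus strand), had 74.7 and 48.7 CPM in Relapsed and 15.4 and 6.65 CPM in Cured libraries, from 25 and 12 against 4 and 2 UMIs (log2 fold change 2.51, SE 0.57, adjusted p = 0.150). The small GTPase gene Rab21 (chr10:115287084-115315594, minus strand) had 134 and 56.8 CPM against 23.1 and 29.9 CPM (1.87, SE 0.46, adjusted p = 0.214). Both rest on few UMIs. Scaf11, a splicing-associated factor (chr15:96411699-96460843, minus strand), was the most abundant, at 1724 and 1606 CPM in Relapsed and 924 and 1181 CPM in Cured libraries (log2 fold change 0.66, SE 0.16, adjusted p = 0.214). Grk2 (chr19:4286001-4306222, minus strand), a kinase that desensitises G protein-coupled receptors such as those for chemokines, had 197 and 146 CPM in Relapsed against 100.1 and 56.6 CPM in Cured libraries (1.16, SE 0.31, adjusted p = 0.275). The sorting receptor gene Sorl1 (chr9:41964720-42124297, minus strand) had a log2 fold change of 0.92 (SE 0.27, adjusted p = 0.316) and Helz2 (chr2:181227615-181242027, minus strand) one of 1.09 (SE 0.32, adjusted p = 0.348).

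On the lower side were Tuba1b, Psmc5, Cdk11b, Fos, Aprt and Sp140. The alpha tubulin gene Tuba1b (chr15:98931425-98934565, minus strand) had 92.6 and 162 CPM in Relapsed and 235 and 296 CPM in Cured libraries (log2 fold change -1.09, SE 0.28, adjusted p = 0.215). Its counts are uncertain because exons of Gm49450 on the same strand overlap it. Psmc5 (chr11:106256154-106263120, plus strand), an ATPase subunit of the proteasome, had 50.8 and 36.5 CPM against 116 and 106 CPM (-1.31, SE 0.35, adjusted p = 0.275). The kinase gene Cdk11b (chr4:155624854-155649938, plus strand) had 68.7 and 85.1 CPM in Relapsed against 177 and 150 CPM in Cured libraries (-1.09, SE 0.29, adjusted p = 0.275). Fos (chr12:85473890-85477273, plus strand), an immediate early gene that is also induced when cells are handled, had 601 and 466 CPM in Relapsed and 1198 and 735 CPM in Cured libraries (-0.85, SE 0.22, adjusted p = 0.277). Its call changed with the libraries and with the processing. It passed without Relapsed replicate 1, Relapsed replicate 2 or Cured replicate 2 (adjusted p = 0.000612, 0.0277 and 0.00488) and did not pass without Cured replicate 1 (log2 fold change -0.48, adjusted p = 0.995). With all libraries it also passed at equal depth (-1.04, adjusted p = 0.0275) and without the count filter (adjusted p = 0.00506), and over all alternatives its adjusted p ranged up to 0.999 with DESeq2. The purine salvage gene Aprt (chr8:122574635-122576909, minus strand) had a log2 fold change of -1.11 (SE 0.31, adjusted p = 0.284) and the nuclear body gene Sp140 (chr1:85600378-85645037, plus strand) one of -0.92 (SE 0.27, adjusted p = 0.348). Exons on the other strand overlap Gsk3a, Sorl1, Tuba1b and Sp140, and whether counting used strand is not given in the sources used here.

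**Figure D5:**
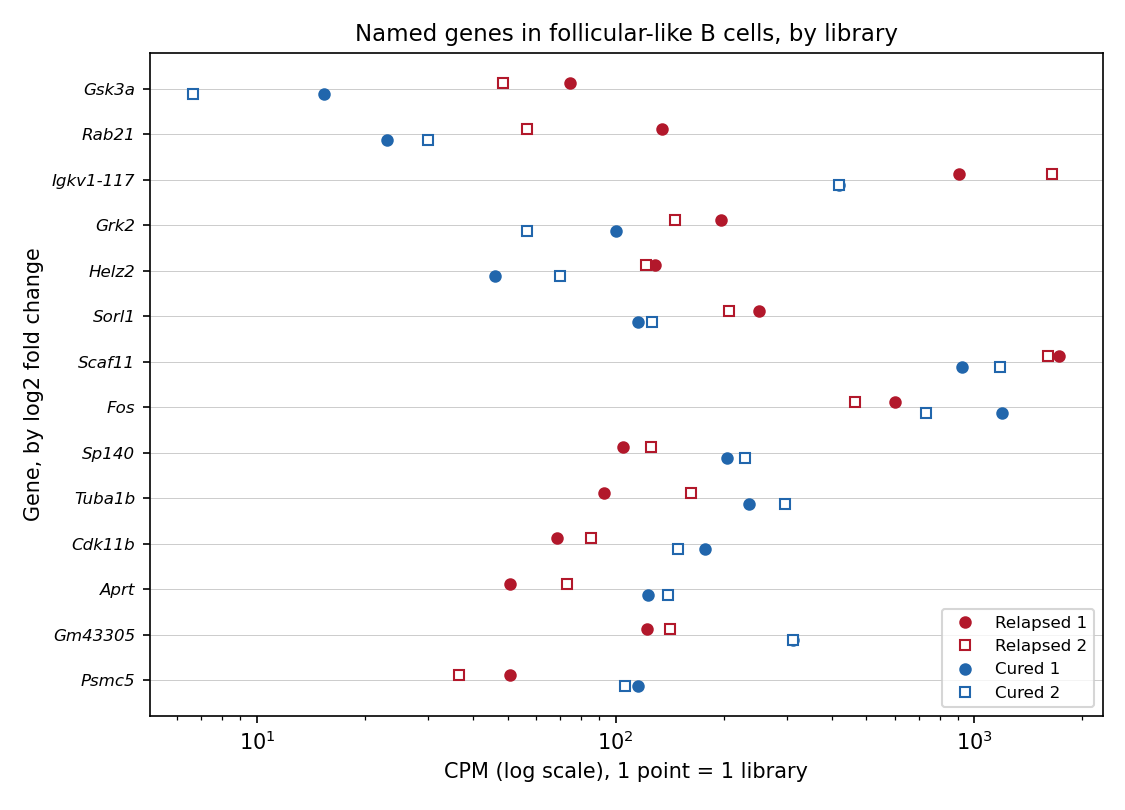
CPM on a log axis (x axis) of the 14 named genes (y axis, ordered by log2 fold change) in each library; red marks are Relapsed and blue marks Cured libraries, filled for replicate 1 and open for replicate 2. No red and blue marks overlap for these genes, which was a condition of the naming rule, and 34.6% of all tested genes share that property.

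The genes of the B cell receptor were read next, since this receptor keeps follicular B cells alive. Of 13 tested genes of the receptor and its co-receptors, 3 (Cd79a, Cd79b and Ighd) were read by the rule and are left out of the count. None of the other 10 passed the test, with 5 above and 5 below 0 and a median log2 fold change of -0.022, against 0.01 over all tested genes. Ighm (chr12:113418558-113422730, minus strand), the constant gene of IgM, had 1942 and 1229 CPM in Relapsed and 1040 and 1038 CPM in Cured libraries (log2 fold change 0.61, SE 0.19, adjusted p = 0.444). Relapsed replicate 1 was high and replicate 2 lay nearer the Cured libraries. Ighd, of which every member had at least 1 UMI by the rule, had 1404 and 1152 CPM in Relapsed and 878 and 921 CPM in Cured libraries, given without a test. The inhibitory lectin gene Siglecg (chr7:43408204-43418358, plus strand) had 206 and 199 CPM in Relapsed against 143 and 170 CPM in Cured libraries (0.37, SE 0.26, adjusted p = 0.907).

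Among signalling genes of the receptor, 0 of 20 tested passed, with 14 above and 6 below 0 and a median of 0.17. Prkcb, the kinase that links the receptor to NF-kB (chr7:122288751-122634402, plus strand), had 197 and 154 CPM in Relapsed and 92.4 and 123 CPM in Cured libraries (log2 fold change 0.70, SE 0.28, adjusted p = 0.698). The adaptor gene Pik3ap1 had 56.8 and 56.8 CPM in Relapsed and 27.0 and 29.9 CPM in Cured libraries (0.98, SE 0.43, adjusted p = 0.715). Vav1, an exchange factor of Rac GTPases, had 17.9 and 28.4 CPM against 42.4 and 49.9 CPM (-1.03, SE 0.55, adjusted p = 0.788). The libraries of the groups did not overlap for 9 of the 20 genes, beside 34.6% of all tested genes.

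Transcription factors of B cell identity lay mostly above 0. Of 18 tested, 15 were above and 3 below 0, with a median of 0.27, and 0 passed the test. Among all tested genes 51.9% were above 0. Cux1 had 53.8 and 48.7 CPM in Relapsed and 19.3 and 29.9 CPM in Cured libraries (log2 fold change 1.03, SE 0.47, adjusted p = 0.761). Ets1, which restrains plasma cell differentiation, had 651 and 499 CPM in Relapsed against 420 and 429 CPM in Cured libraries (0.44, SE 0.20, adjusted p = 0.761). Pou2f2, which encodes OCT2, had 239 and 223 CPM in Relapsed against 139 and 183 CPM in Cured libraries (0.52, SE 0.25, adjusted p = 0.775). Pax5 itself had 191 and 126 CPM in Relapsed against 104 and 136 CPM in Cured libraries, and the groups overlapped (0.41, SE 0.29, adjusted p = 0.911).

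Genes of survival, homing and antigen presentation held 0 called members. Of 11 tested survival receptors and BCL2 family genes, 7 were above 0, with a median of 0.21. The anti-apoptotic gene Mcl1 had 251 and 191 CPM in Relapsed and 158 and 143 CPM in Cured libraries (log2 fold change 0.56, SE 0.26, adjusted p = 0.761). The BAFF receptor gene Tnfrsf13c had 83.7 and 118 CPM in Relapsed against 80.9 and 99.8 CPM in Cured libraries, with overlapping groups (0.13, SE 0.31, adjusted p = 0.968). Of 17 homing and recirculation genes 7 were above and 10 below 0 (median -0.13). The lymph node homing receptor gene Ccr7 had 547 and 596 CPM in Relapsed and 763 and 566 CPM in Cured libraries, with overlapping groups (log2 fold change -0.22, SE 0.20, adjusted p = 0.936). Cxcr4, a chemokine receptor, was uneven, at 188 and 48.7 CPM in Relapsed and 69.3 and 43.3 CPM in Cured libraries (1.15, SE 0.77, adjusted p = 0.934).

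The MHC class II list had a median of -0.07 over 14 tested genes, with 6 above and 8 below 0. The invariant chain gene Cd74, the most abundant, had 24078 and 30097 CPM in Relapsed and 29112 and 29450 CPM in Cured libraries (log2 fold change -0.11, SE 0.11, adjusted p = 0.937). Ciita, the master activator of these genes, had 105 and 114 CPM in Relapsed and 53.9 and 79.8 CPM in Cured libraries (0.68, SE 0.32, adjusted p = 0.761). The class II chains themselves were level, with log2 fold changes between -0.07 and 0.06 for H2-Aa, H2-Ab1 and H2-Eb1. For MHC class I and peptide loading, 5 of 16 tested genes were above 0 and the median was -0.11.

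No activation or stress gene passed the test. Of 19 tested activation and immediate early genes 8 were above and 11 below 0 (median -0.05). The unadjusted p was under 0.05 for 5 of them, 2 higher and 3 lower, beside 6.29% of all tested genes. Glycolysis genes had 3 of 8 under it, all lower. Beside Fos, the RNA decay factor Zfp36 had 759 and 888 CPM in Relapsed and 1414 and 1001 CPM in Cured libraries (log2 fold change -0.55, SE 0.18, adjusted p = 0.589). Jund lay the other way, with 1120 and 722 CPM in Relapsed against 678 and 619 CPM in Cured libraries (0.51, SE 0.20, adjusted p = 0.698). Cured replicate 1 was the highest library for Fos, Zfp36 and Junb. Of 12 heat shock and thaw stress genes 7 were below 0 (median -0.07), with Hspa8, a constitutive chaperone, at 499 and 730 CPM in Relapsed and 1055 and 858 CPM in Cured libraries (-0.65, SE 0.20, adjusted p = 0.402). Cells had been frozen and thawed in both groups, and the part of handling in these values was not tested.

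Interferon response genes showed no called member in either list. Of 17 tested type I response genes 6 were above and 11 below 0 (median -0.14), after a rule that had already limited 5 such genes. Of 4 tested interferon gamma genes, Irf1 had 68.7 and 93.3 CPM in Relapsed and 131 and 139.7 CPM in Cured libraries (log2 fold change -0.76, SE 0.30, adjusted p = 0.698). In the toll-like receptor and NF-kB list 7 of 13 genes were above 0 (median 0.05), and in the cytokine receptor and JAK-STAT list 5 of 13 (median -0.10).

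No member of the metabolic and housekeeping lists passed the test. Nuclear oxidative phosphorylation genes had 28 of 36 above 0 (median 0.07), mitochondrially encoded transcripts 11 of 13 (median 0.13) and cytosolic ribosomal protein genes 59 of 76 (median 0.08). The median mitochondrial share of members was 2.84% and 2.40% in Relapsed and 2.14% and 2.38% in Cured libraries, and the depth per member was lower in both Relapsed libraries; the part of both in these medians was not tested. Glycolysis genes had 6 of 8 below 0 (median -0.23), among them Pkm at 56.8 and 122 CPM in Relapsed and 143 and 180 CPM in Cured libraries (log2 fold change -0.90, SE 0.32, adjusted p = 0.676). All 8 genes of the TRiC chaperonin, which folds actin and tubulin, lay below 0 (median -0.30, lowest adjusted p = 0.775). In the actin cytoskeleton list 18 of 28 were below 0 (median -0.07). Next to Tuba1b, the tubulin gene Tuba1a had 77.7 and 89.2 CPM in Relapsed and 158 and 166 CPM in Cured libraries (-0.96, SE 0.29, adjusted p = 0.366). Exons of Gm49450 on the same strand overlap Tuba1a too, so its counts are uncertain like those of Tuba1b. Only 4 of 24 cell cycle genes had enough counts to be tested, and Mki67 had 1 and 0 UMIs in Relapsed and 0 and 0 in Cured members.

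RNA of other cell types was uneven between libraries. Red cell genes summed to 1356 and 1 UMIs in Relapsed and 3 and 2 UMIs in Cured members, neutrophil genes to 441 and 5 against 109 and 22 UMIs, and NK genes to 4 and 42 against 5 and 7 UMIs. Most of the red cell UMIs were the haemoglobin UMIs of 1 member described above. None of 10 T cell and of 9 red cell and platelet genes had enough counts to be tested, and 3 of 19 myeloid and neutrophil genes did. S100a8 had 672 and 12.2 CPM in Relapsed and 235 and 36.6 CPM in Cured libraries (log2 fold change 1.41, SE 2.16, adjusted p = 0.966). In Relapsed replicate 1, 333 of the 411 S100a8 and S100a9 UMIs lay in 1 member, and in Cured replicate 1, 89 of 101. Without Relapsed replicate 1 the log2 fold change was -3.40 for S100a8 and -4.38 for S100a9. Platelet genes Pf4, Ppbp, Itga2b and Gp9 had 0 UMIs in every library.

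Whether the group difference in members itself differed from that in neighbouring classes was tested by an interaction term in a fit that held library fixed. Against the B cells with Vpreb3 or Cd93 UMIs 4 of 7164 genes passed (0.0558%), and against the cells with Iglc at least Igkc 5 of 5613 passed (0.0891%). All of these were light chain variable segments, whose transcripts also carry the constant genes that the rule compared. Their calls are therefore not independent of the rule. Igkv1-117 was among them against the cells with Iglc at least Igkc (log2 difference 1.33, SE 0.17, adjusted p = 0.000501). In those cells Igkv1-117 had 383 UMIs in 21 cells and 1047 UMIs in 40 cells of Relapsed libraries and 831 UMIs in 23 cells and 810 UMIs in 26 cells of Cured libraries. In the Vpreb3 or Cd93 cells the order was turned round, at 511 and 526 CPM of the unadjusted class sum in Relapsed and 996 and 761 in Cured libraries. No gene other than an immunoglobulin segment passed in either comparison. The unadjusted p was under 0.05 for 295 of the 7164 and 233 of the 5613 genes tested, immunoglobulin segments included. The leading other genes were Cdk11b against the Vpreb3 or Cd93 cells (log2 difference -1.26, SE 0.29, adjusted p = 0.0944) and Neil1 against the cells with Iglc at least Igkc (3.19, SE 0.80, adjusted p = 0.236). Gm43305 and Scaf11 thus gave no interaction call. In the Vpreb3 or Cd93 cells Gm43305 had 124 and 142 CPM of the unadjusted class sum in Relapsed and 241 and 248 in Cured libraries. In the same cells Scaf11 had 1587 and 1396 in Relapsed and 933 and 926 in Cured libraries. In T cells Scaf11 had 1268 and 1472 in Relapsed and 769 and 881 in Cured libraries. These classes come from the same libraries, so their values are not independent of those of the members.

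Members varied among themselves mostly in their antigen receptors. At 1000 UMIs per cell, 739 genes had a mean of at least 0.1 UMI in every library, and the median over genes of the lowest Fano factor (variance over mean of the 4 libraries) was 0.903. Among the 15 genes with the highest such value were 11 kappa segments and Iglv1. For Igkv1-117 the lowest of the 4 values was 12.4. Outside the antigen receptor genes only Gm42418 (lowest value 29.3), Scaf11 (2.97) and Malat1 (2.78) were among the 15. Gm42418 overlaps a ribosomal RNA locus, and Malat1 encodes a nuclear long noncoding RNA.

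Members used many different segments. Clones were not called, so whether cells with the same segment belong to 1 clone was not tested. A dominant kappa segment (at least 2 UMIs and more than 50% of the Igkv UMIs of the cell) was found in 190 and 124 Relapsed members and 113 and 127 Cured members, over 61 and 50 against 46 and 50 distinct segments. The most used one was Igkv1-117 in both Relapsed libraries, in 14 cells (7.37%) and 11 cells (8.87%), and Igkv10-96 in both Cured libraries, in 10 cells (8.85%) and 9 cells (7.09%). A dominant heavy chain segment was found in 51 (25.8%) and 82 (62.6%) Relapsed members and 81 (66.9%) and 84 (61.8%) Cured members. The most used heavy chain segment reached 7.84% and 4.88% of these cells in Relapsed and 7.41% and 7.14% in Cured libraries. Relapsed replicate 1 was low in heavy chain calls and the other 3 libraries were close to each other.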

How the data were processed

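Gene by cell matrices of UMI counts from 4 libraries, 2 per group, were used as deposited. Per the submitters' processing notes they were made with Cell Ranger 3.1.0 on mm10; no annotation release is given there. The deposited counts are not normalized. Barcodes with fewer than 200 genes or over 10% mitochondrial UMIs were left out, which kept 3252 and 4271 cells in Relapsed and 3780 and 4136 cells in Cured libraries. No doublet caller was run. The members, gene lists and tests were chosen with earlier results of these data known.

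UMIs were summed over the members of each library and tested with edgeR 4.0.16 (TMM scaling, filterByExpr, robust quasi-likelihood test, R 4.3.3) with Benjamini-Hochberg adjustment over all genes tested and a threshold of 0.05. DESeq2 1.42.0 and limma 3.58.1 were alternatives. The script was tested on simulated counts in which all genes had the same dispersion. Of 177, 182 and 176 tested genes changed by 1, 1.5 and 2 on the log2 scale, it called 24.3%, 74.7% and 94.3%. It also called 1, 8 and 12 unchanged genes. Genes with a larger spread, such as variable segments held by few cells, were not simulated. Class shares were tested with edgeR on cell numbers. P-values rest on the spread between pools of 3 mice. Each gene had 2 residual degrees of freedom, against a median of 28.7 borrowed from all tested genes. A gene p-value thus measures mostly this shared spread and little of the gene's own. Intervals (exact, 95%) and limits of 3 counts cover counting error only. Shares of cells with a UMI were read after thinning to 1000 UMIs per cell, and T cells had at least 2 Cd3 UMIs.

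Named genes were those past the test with groups that do not overlap and a mean of at least 20 CPM, filled to 6 per direction by smallest p. Genes of the rule, antigen receptor, sex-linked, mitochondrial, ribosomal, haemoglobin and predicted genes were set apart from that choice. Igkv1-117 and Gm43305 belong to the genes set apart and are described because they were the only genes past the test. The 3 genes of smallest p of each list, and the marker genes, were also to be named, of which not all are given; other list genes were added after their values were seen. Coordinates are from GENCODE M21 on GRCm38, in which 32158 of 32287 feature IDs were found. Groups shared replicate numbers, but nothing in the labels pairs the libraries. Some genes are not reported here.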

Additional observations from a re-analysis of the deposited data

Results flagged for a closer look

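For 8 light chain variable segments, the Relapsed against Cured difference in members differed from that in a neighbouring B cell class. Of these, 1 (Igkv4-86) did so in both comparisons. The difference itself was tested (edgeR, adjusted over all genes). Members were chosen by the constant genes of the same light chain transcripts, a condition that sets them apart from both classes. These values are therefore not independent of the rule, and the part of the light chain condition in them was not tested. Against the B cells with Vpreb3 or Cd93 UMIs, the log2 difference was -1.16 for Igkv6-15 (SE 0.15, adjusted p = 4.75e-05), -9.10 for Igkv4-86 (SE 1.40, adjusted p = 0.000765), -1.39 for Iglv2 (SE 0.25, adjusted p = 0.00601) and 8.46 for Igkv11-125 (SE 1.62, adjusted p = 0.0158). Against the cells with Iglc at least Igkc it was -12.27 for Igkv4-86 (SE 1.32, adjusted p = 2.48e-07), 8.10 for Igkv3-1 (SE 0.94, adjusted p = 7.41e-07), 1.33 for Igkv1-117 (SE 0.17, adjusted p = 0.000501), 1.80 for Igkv12-44 (SE 0.25, adjusted p = 0.00184) and -0.91 for Igkv12-46 (SE 0.19, adjusted p = 0.0427).

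The values with the largest size rest on libraries without a UMI, so their size depends on the prior count and is no bound. In members, Igkv4-86 had 0 and 0 UMIs in Relapsed libraries and 8 UMIs in 1 cell and 26 UMIs in 2 cells of Cured libraries. Igkv3-1 had 0 UMIs and 19 UMIs in 2 cells in Relapsed libraries and 0 UMIs and 1 UMI in Cured libraries. Igkv11-125 had 5 UMIs in 1 cell and 28 UMIs in 2 cells in Relapsed libraries and 0 and 0 UMIs in Cured libraries. Igkv6-15 was less sparse, with 162 UMIs in 8 cells and 150 UMIs in 6 cells of Relapsed libraries and 278 UMIs in 8 cells and 209 UMIs in 6 cells of Cured libraries. Each of these counts comes from a few cells that carry the segment at high copy number, and UMIs of 1 cell are not independent.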

How the results depend on the processing

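The count of 2 genes called in members was the same with RLE size factors. It was 19 without the count filter, 1 with DESeq2, 1 with limma-voom, 6 at equal depth, 0 with no UMI of another lineage allowed (205 at an unadjusted p under 0.05), 6 without the Fcer2a and Ighd conditions, 7 at a mitochondrial limit of 5% and 1 with immunoglobulin genes left out. Leaving out 1 library gave 9 to 72 calls, most without Relapsed replicate 2. Without the light chain condition 0 of 8030 genes passed edgeR (627 at an unadjusted p under 0.05) and 0 limma-voom, 2 passed DESeq2 (Gm43305 and Scaf11), and leaving out 1 library gave 8 to 487 calls. Without Relapsed replicate 2, the comparison sets Relapsed replicate 1 alone against the Cured pair, and the lone library is assumed to vary like the others; the cause of the rise in calls was not tested.

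The interaction counts were 7 to 30 (against the Vpreb3 or Cd93 cells) and 5 to 27 (against the cells with Iglc at least Igkc) with 1 library left out, 21 and 18 without the count filter, and 0 and 1 without the library term. The log2 ratio of the share among gated B cells ranged over -0.15 to 1.09 with 1 library left out and was -0.012 without the light chain condition; among kept cells it ranged over -0.081 to 0.91 and was -0.063. Among the named genes, 1042 of the alternative values kept direction and side of the threshold, 35 passed it, 11 lost it and 10 changed sign. Lgmn was at -0.014 without the Fcer2a and Ighd conditions. With 1 library left out Ifi47 ranged over -1.35 to 0.20, Pcna over -0.49 to 0.056 (0.10 without the Fcer2a and Ighd conditions), S100a9 over -4.38 to 2.93, S100a8 over -3.40 to 3.21 and Lyz2 over -0.50 to 2.66 (-0.35 without the light chain condition). The causes were not tested.

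With the replicate number as a block 27 genes passed in members and 78 without the light chain condition, and the share ratio was 0.47 (adjusted p = 0.690). Over genes, deviations from the group mean correlated at 0.0419 between same-numbered libraries. Because a group has 2 libraries, the other pair repeats these values with the sign turned and adds nothing. This correlation cannot decide whether same-numbered libraries share more than a number. With 2 libraries a group, few cells and a median of 1851 to 2304.5 UMIs per member, genes of low count could not be tested.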
